A study of Rhinolophus ferrumequinum with 8 samples.

Results

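In the spleen of wild female greater horseshoe bats, 87 of 19652 genes met a rule for being higher in all 6 libraries taken in November than in either of the 2 libraries taken in July. They were chosen from the measured values, and 4 met the rule with a 0 in both seasons. The lowest November library had to be at least 1.5 times the higher summer library, with a November mean of at least 5. A further clause, leaving out genes at least 1.5 times higher in both arousal libraries than in all others, left out 0 genes. Values are TPM, a length-corrected share of transcripts, rescaled between libraries so that columns no longer sum to the same total. Since this difference chose the genes, the contrast between November and summer is described below and carries no test.

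RNA of whole spleen was sequenced from 4 states with 2 biological replicates each. The summer active animals come from July. Those in torpor, in arousal (2 h after capture) and in the winter active state (26 h after capture) come from November, so month, season and whatever differs between the 2 sampling occasions cannot be told apart. No genotype or drug treatment is named for any group. Ages are not stated in the labels, and 2 animals stand for each state.

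Hibernating bats alternate between torpor and short arousals, when they rewarm by burning fat. In torpor, metabolism drops and body temperature falls close to that of the surroundings. The spleen filters blood, recycles iron from old red cells and holds lymphocytes and macrophages. In hibernators, circulating white cells become scarce during torpor and return on arousal. In whole tissue, fewer cells of a type and less RNA per cell cannot be told apart.

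The libraries held the markers of spleen. C1QA of red pulp macrophages lay between 1488 and 7835, CD79A of B cells between 184 and 1071, and TLX1, a transcription factor of spleen stroma, between 15.4 and 46.0. The summed level of 32 erythroid markers was 7544 to 11193 in summer and 322 to 650 in November, and that of 20 B-cell markers 3159 to 3740 and 885 to 1890. Column totals ran from 745098 to 1331820, highest in the 2 summer libraries.

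Of the 10254 genes with a November mean of at least 5, the 87 make up 0.848%. At any ratio, every November library lay above both summer libraries in 1064 of those genes (10.4%). Every November library lay below both, at any ratio, in 1224 of 10122 genes with a summer mean of at least 5. The mirrored rule, with every November library at least 1.5 times below both summer libraries, found 285 of 10122 genes (2.82%), among them 28 of 32 erythroid markers and 27 of 36 mitosis genes. With each column set to a total of 1000000, which lowers the summer columns, 688 genes met the rule, 86 of the 87 included. Fewer libraries make the rule easier to meet: it took 656 genes without summer active 1, 235 without summer active 2, 195 without torpor 1 and 139 without winter active 1.

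**Figure D1:**
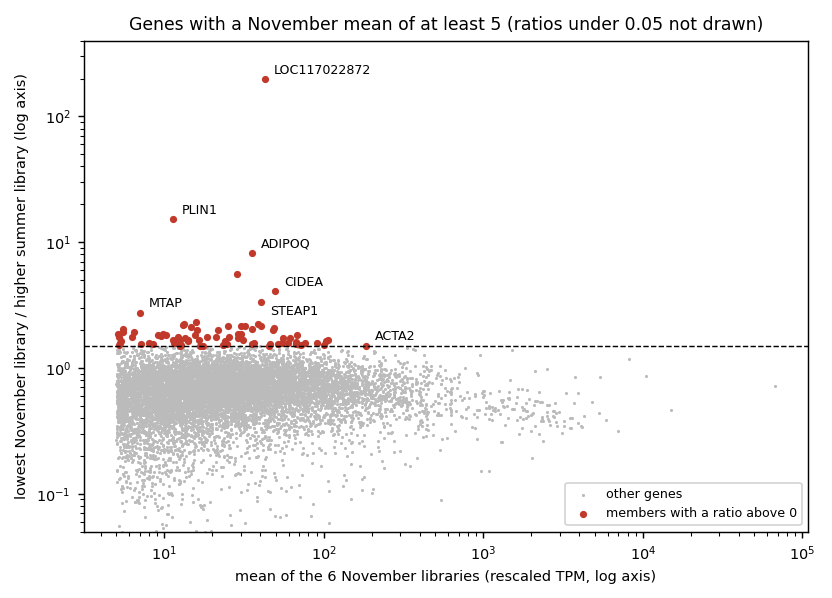
Ratio of the lowest November library to the higher summer library (y axis, log scale, no unit) against the mean of the 6 November libraries (x axis, rescaled TPM, log scale) for genes with a November mean of at least 5. Each point is a gene, red for members, and the dashed line is the ratio of 1.5; ratios under 0.05 and the 6 members at 0 in summer are not drawn. Most members sit just above the line, and LOC117022872 (198), PLIN1 (15.2), ADIPOQ (8.24) and CIDEA (4.06) stand well above it.

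Most of the 87 passed by a modest margin. Of the 81 members with a summer value above 0, 60 had a ratio under 2 and 21 a ratio of at least 2, with a median of 1.74. The November mean was at least 2 times the summer mean in 75 of them and at least 4 times in 26, with a median of 3.19. Just inside the threshold stood among named genes KLF10 (1.502), ABHD2, ACTA2 and IFIH1 (each 1.51). Just outside stood S100A5, SRPRA, TYW5 and POLR2A (each 1.49). The other 6 members were listed at 0 in both summer libraries, where any November value meets the rule, and 4 of those 6 were at 0 in some November library too. The higher summer library was summer active 1 for 57 members and summer active 2 for 24. Among all genes with a November mean of at least 5, summer active 1 was the higher in 48.3%.

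The members were mid-level genes. Their November means ran from 5.14 to 183 with a median of 23.9, against 22.4 for all genes with a November mean of at least 5. The coefficient of variation over the 6 November libraries had a median of 31.2%, against 23.2% for those genes. The lowest November value fell in torpor 1 for 24 members, winter active 1 for 20 and torpor 2 for 16. Arousal 1 held the highest value for 42 members, torpor 1, torpor 2 and winter active 2 for 11 each, arousal 2 for 9 and winter active 1 for 3. These counts were not made over all genes, so they are not shown to be particular to the members. The median of all genes with a November mean of at least 5 was itself highest in the arousal libraries (23.1 and 23.2, against 20.4 in torpor 1). No members were directly adjacent among protein-coding genes in the RefSeq annotation of assembly mRhiFer1_v1.p. The nearest, ZNF366 and FCHO2, had 2 genes between them.

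**Figure D2:**
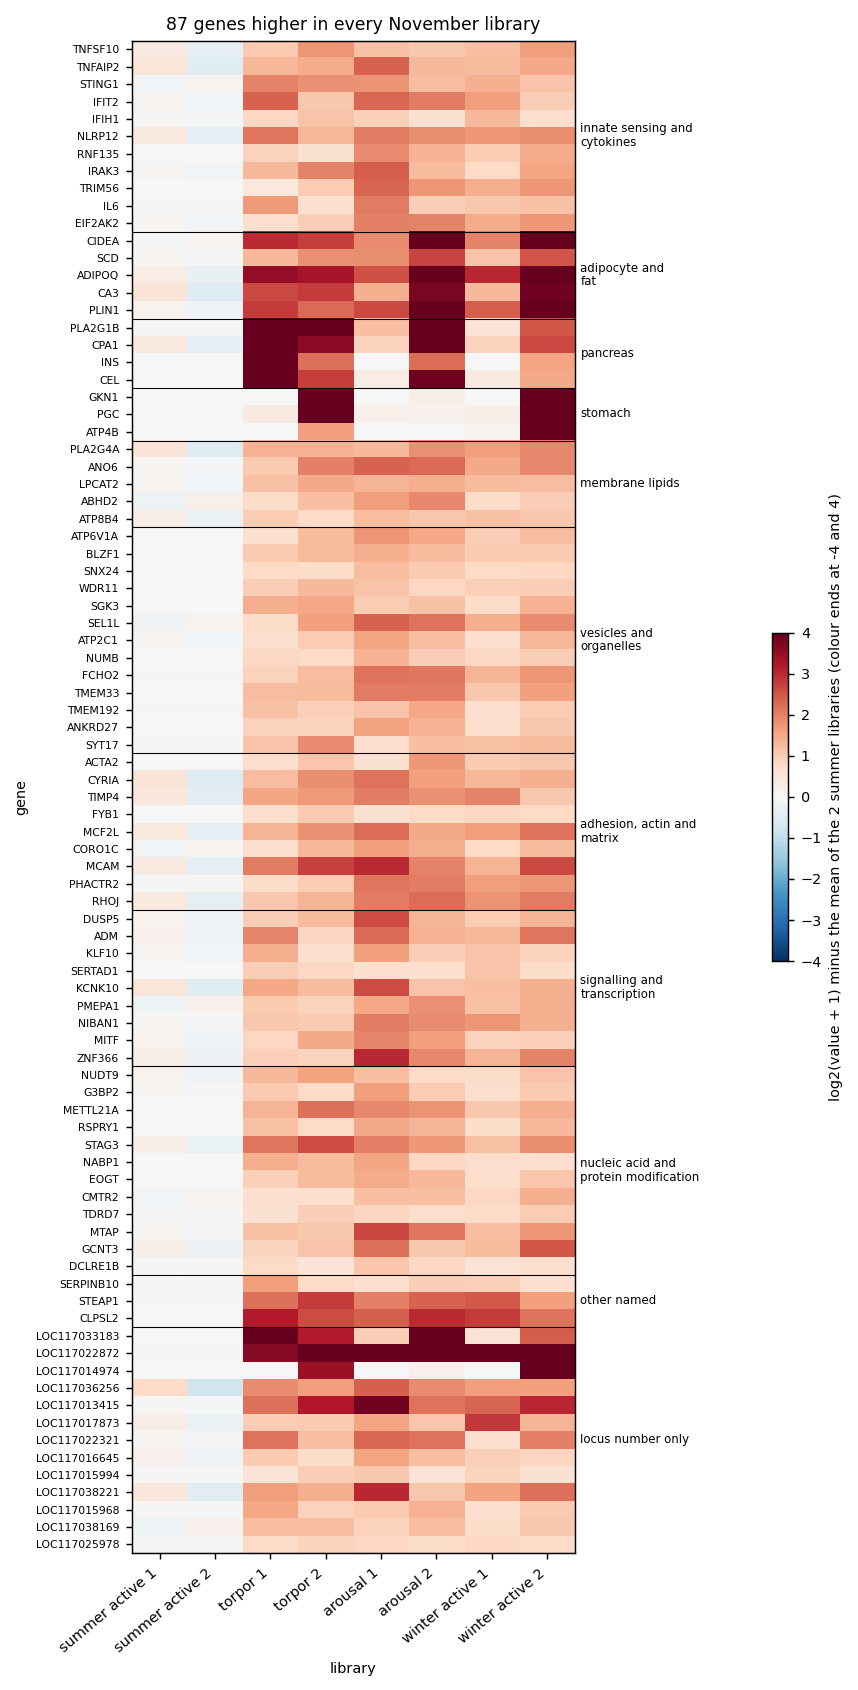
Heat map of the 87 members (rows, ordered by role) in the 8 libraries (columns). Colour gives log2(value + 1) minus the mean of the 2 summer libraries, red for higher, with the scale ending at -4 and 4. The November columns are red to different depths. Arousal 1 is the deepest for 42 members, a count not made over all genes. The pancreas and stomach rows are deep in a few libraries and pale in the rest.

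By role, grouped after the members were known, 11 members serve innate sensing and cytokine signalling, 13 vesicles and organelles, 5 membrane lipids, and 9 each adhesion with actin and matrix, and signalling with transcription. Another 12 act on nucleic acids, proteins or metabolites. Fat, pancreas and stomach account for 5, 4 and 3. The other 16 are STEAP1, SERPINB10, CLPSL2 and 13 genes with a locus number in place of a symbol. Of 53 gene lists chosen for spleen, immunity, stress, metabolism and other organs, 18 held a member. In what follows, paired values are replicates 1 and 2 of a state.

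The innate members included nucleic acid sensors, their adaptor and enzymes, and brakes on the response. STING1, the adaptor that relays cytosolic DNA sensing (NCBI gene 117016402), stood at 6.92 and 8.38 in summer, 33.2 and 29.5 in torpor, 28.7 and 19.1 in arousal and 21.9 and 18.1 in the winter active state. All 6 November libraries lay above 18, and both torpor libraries stood above the other 4. The November mean was 25.1 ± 6.22 (SD, n = 6) against 7.65 ± 1.04 (n = 2), a ratio of means of 3.28. CGAS, the enzyme that makes the second messenger for STING1, did not share this pattern, at 3.43 and 5.09 in summer and 2.54 to 8.93 in November.

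IFIH1 encodes MDA5, a sensor of long double-stranded RNA. It stood at 8.62 and 7.84 in summer, 15.5 and 19.2 in torpor, 16.9 and 13.01 in arousal and 21.7 and 13.6 in the winter active state. RIGI, the sister sensor of short RNA, missed the rule with a ratio of 1.48, at 6.05 and 4.45 in summer and 8.96 to 15.1 in November. MAVS, the adaptor of both, overlapped between summer (58.9 and 33.1) and November (46.6 to 78.8). RNF135, a ubiquitin ligase that activates RIG-I, stood at 4.38 and 4.44 in summer, 9.37 and 7.26 in torpor, 18.9 and 13.1 in arousal and 9.85 and 14.3 in the winter active state.

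EIF2AK2 encodes PKR, a kinase that stops translation when it meets double-stranded RNA. Its values were 1.29 and 0.952 in summer, 2.29 and 3.18 in torpor, 7.46 and 7.34 in arousal and 4.86 and 5.97 in the winter active state. TRIM56, a ubiquitin ligase of antiviral defence, followed the same order of states, with 1.72 and 1.71, then 2.65 and 4.49, then 12.6 and 8.17, then 6.49 and 8.21. In both genes the libraries of each state lay apart from those of every other, except that the arousal and winter active libraries of TRIM56 overlapped (8.17 against 8.21). IFIT2, an interferon-induced RNA-binding protein, was uneven within states: 5.89 and 4.96 in summer, 31.8 and 12.5 in torpor, 30.2 and 25.3 in arousal and 19.4 and 11.7 in the winter active state.

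The wider interferon list followed in part. Of its 38 genes with a November mean of at least 5, 3 were members (EIF2AK2, IFIH1 and IFIT2), 7.89% against a background of 0.848%. Every November library lay above both summer libraries in 12 of the 38, against 10.4% of all genes at that level. Every November library lay below both in 1 of the 38, a count that leaves out genes that fell under a November mean of 5. Of the list's 36 genes with a summer mean of at least 5, 2 met the mirrored rule, against 2.82% of genes at that level. ISG15 (98.8 and 28.2 in summer, 37.6 to 328 in November) and MX1 (125 and 56.4, 76.6 to 283) overlapped between the seasons. ISG20 and RSAD2, also interferon-induced, met the mirrored rule, RSAD2 at 29.1 and 56.2 in summer and 1.12 to 9.25 in November. A separate list of sensors and pattern recognition genes leaves out NLRP12 and IRAK3, and also IFIH1 and RIGI (counted as interferon genes). It had 25 genes with a November mean of at least 5. STING1 was its 1 member, and 7, STING1 included, lay above both summer libraries in every November library. TLR8 had the next highest ratio on that list (1.43).

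NLRP12 and IRAK3 restrain inflammatory signalling in myeloid cells. NLRP12 stood at 4.03 and 2.11 in summer, 16.3 and 8.98 in torpor, 15.6 and 13.4 in arousal and 12.2 and 13.3 in the winter active state, a mean of 13.3 ± 2.62 in November. IRAK3, the kinase-dead member of the Toll-like receptor kinases, stood at 2.71 and 2.18 in summer, 7.37 and 12.5 in torpor, 17.3 and 7.22 in arousal and 5.03 and 9.26 in the winter active state. Both had November means at least 4 times their summer means (4.33 and 4.00).

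Among secreted factors, the cytokine IL6 was low throughout, at 1.93 and 1.72 in summer, 8.23 and 3.42 in torpor, 10.8 and 4.57 in arousal and 4.99 and 5.38 in the winter active state. TNFSF10, the death ligand TRAIL, was the highest of the innate members, at 50.8 and 31.2 in summer, 83.2 and 137 in torpor, 90.1 and 85.4 in arousal and 92.4 and 130 in the winter active state. These were the 2 members among 58 cytokine, chemokine and receptor genes at the level of the rule, against 0.848% of all genes. TNFAIP2, a gene induced by tumour necrosis factor, stood at 28.0 and 13.8 in summer and between 48.9 and 105 in November, the highest value in arousal 1.

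**Figure D3:**
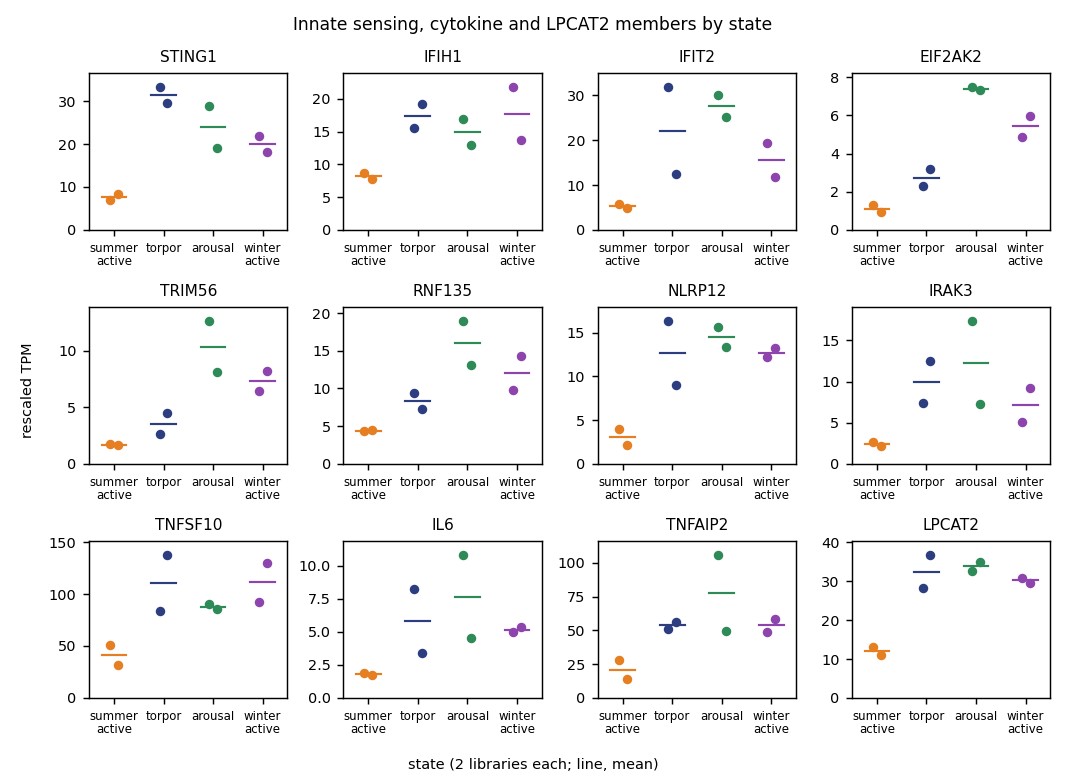
Rescaled TPM (y axis, linear from 0) of the 11 innate sensing and cytokine members and of LPCAT2 by state (x axis). Points are the 2 libraries of a state and lines their means. Every November point lies above both summer points; EIF2AK2 is at 7.46 and 7.34 in arousal and STING1 at 33.2 and 29.5 in torpor.

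No macrophage, neutrophil, dendritic cell, plasma cell, B-cell, T-cell, NK cell, platelet, erythroid or endothelial marker was a member. These lists had 9 to 23 genes each with a November mean of at least 5. Members made up 0.848% of all genes at that level, so holding none is near that share. The summed level of 23 macrophage markers was 6581 to 18919 in summer and 14707 to 24165 in November, overlapping. Of the 23, 4 were above both summer libraries in every November library, against 10.4% of all genes at that level. The 19 neutrophil markers summed to 2900 to 3046 in summer and 1461 to 15694 in November. The part of these cell types in the innate members was not tested.

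Lipid genes were the next set. LPCAT2, an acyltransferase that remodels phospholipids and makes platelet-activating factor, was the named member with the least November spread (coefficient of variation 9.93%). It stood at 13.1 and 11.2 in summer, 28.4 and 36.6 in torpor, 32.7 and 35.0 in arousal and 30.8 and 29.6 in the winter active state. PLA2G4A, the cytosolic phospholipase that releases arachidonic acid, stood at 25.4 and 11.9 in summer, 47.4 in both torpor libraries, 44.2 and 64.0 in arousal and 58.3 and 69.5 in the winter active state. ANO6, a scramblase that exposes phosphatidylserine, stood at 12.7 and 11.2 in summer, 25.6 and 51.4 in torpor, 65.9 and 61.2 in arousal and 35.5 and 48.4 in the winter active state.

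ATP8B4, a putative lipid flippase, was near the level limit with 2.62 and 1.46 in summer and 4.16 to 5.98 in November. ABHD2, a lipid hydrolase, stood at 5.68 and 7.74 in summer and 11.7 to 27.7 in November, highest in the 2 arousal libraries. Of 59 lipid synthesis, phospholipid and sterol genes at the level of the rule, 3 were members (LPCAT2, PLA2G4A and SCD), against 0.848% of all genes. Every November library lay above both summer libraries in 15 of the 59, against 10.4% of all genes at that level. Every November library lay below both in 1 of the 59, a count that leaves out genes that fell under a November mean of 5. Of the list's 61 genes with a summer mean of at least 5, 1 met the mirrored rule, against 2.82% of genes at that level. No member came from the 41 fatty acid oxidation genes with a November mean of at least 5, against 0.848% of all genes there.

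Fat-cell genes had the highest ratios among named members. PLIN1, the protein that coats fat droplets in adipocytes (NCBI gene 117018945), stood at 0.308 and 0.0584 in summer, 7.13 and 4.68 in torpor, 6.28 and 18.8 in arousal and 5.33 and 25.5 in the winter active state. ADIPOQ, the adipocyte hormone adiponectin, stood at 1.04 and 0.327 in summer, 17.9 and 15.2 in torpor, 8.61 and 75.4 in arousal and 12.4 and 81.4 in the winter active state. CIDEA, which enlarges fat droplets, stood at 3.69 and 4.34 in summer, 38.5 and 33.3 in torpor, 17.6 and 95.4 in arousal and 19.0 and 91.6 in the winter active state.

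All 3 genes were highest in arousal 2 and winter active 2, and within those states replicate 2 exceeded replicate 1 by more than the torpor replicates differed. SCD, the fatty acid desaturase, had the same 2 libraries on top (63.6 and 55.3), against 20.9 to 34.6 in the other November libraries and 9.37 and 8.46 in summer. CA3, a carbonic anhydrase of fat and muscle, did too, at 53.3 and 57.9 against 8.68 to 26.7 in the other November libraries and 4.64 and 1.801 in summer.

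Other adipocyte genes moved less. Of 12 adipocyte markers with a November mean of at least 5, 3 were members, against 0.848% of all genes at that level. In 6 of the 12 every November library lay above both summer libraries, against 10.4%. Only 6 markers on the list had a summer mean of at least 5, so the November limit itself took in markers high in November. These counts are a description. LPL, the lipoprotein lipase, stood at 19.2 and 15 in summer, 25.1 to 37.4 in 4 November libraries, 111 in arousal 2 and 80.9 in winter active 2. The leptin gene LEP overlapped, at 0.336 and 3.85 in summer and 2.83 to 35.9 in November, with its highest values in winter active 2 and arousal 2. The summed level of all 17 adipocyte markers was 1873 to 2141 in summer and 1784 to 3567 in November, most of it CFD. How much fat tissue each spleen sample held was not tested.

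Pancreatic and stomach genes were very uneven over the November libraries. CPA1, a digestive carboxypeptidase, stood at 3.69 and 1.81 in summer, 144 and 42.5 in torpor, 5.82 and 137 in arousal and 5.94 and 21.5 in the winter active state. PLA2G1B, the pancreatic phospholipase, followed the same libraries, with 2.40 and 2.24 in summer, 235 and 51.0 in torpor, 6.70 and 146 in arousal and 3.82 and 17.4 in the winter active state. CEL, the bile salt lipase, stood at 0.634 and 0.610 in summer and from 0.997 in arousal 1 to 30.1 in torpor 1.

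The unnamed gene LOC117033183 had its highest values in the same 3 November libraries, arousal 2 first, with 4.82 and 5.07 in summer, 156 and 52.6 in torpor, 10.8 and 170 in arousal and 7.79 and 30.6 in the winter active state. INS, the insulin gene, was listed at 0 in both summer libraries, arousal 1 and winter active 1, at 201 in torpor 1 and at 1.96 to 3.66 in the other 3. Of 11 pancreatic markers with a November mean of at least 5, 3 were members, against 0.848% of all genes at that level. In 8 of the 11 every November library lay above both summer libraries, against 10.4%. Only 2 markers on the list had a summer mean of at least 5, so the November limit itself took in markers high in November. These counts are a description. The summed level of all 13 markers was 31.8 and 24.0 in summer, 2017 in torpor 1, 1117 in arousal 2, 444 in torpor 2, 174 in winter active 2, 57.4 in arousal 1 and 38.7 in winter active 1. How much pancreatic tissue each sample held was not tested.

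GKN1, PGC and ATP4B, of the gastric mucus layer, pepsinogen and the acid pump, were listed at 0 in both summer libraries. GKN1 reached 666 in winter active 2 and 23.1 in torpor 2 and was at most 0.183 in the other 4. PGC reached 455 and 89.5 in the same libraries and lay at 0.129 to 0.282 elsewhere in November. ATP4B reached 92.9 and 2.12 and was at most 0.0728 elsewhere. The unnamed LOC117014974 had the same 2 libraries on top, with 171 and 9.74. GKN1, ATP4B, LOC117014974 and INS were at 0 in at least 1 November library, so they were not above summer there and met the rule because 0 is not below 0. With a floor of 1 on the lowest November library, 81 members remained, without these 4, PGC and CEL. The 17 epithelial and gastric markers summed to 226 to 1968 in summer and 187 to 2287 in November, and stomach tissue in the samples was not tested. The 16 hepatocyte markers at the level of the rule held no member, against 0.848% of all genes at that level. Their list summed to 23632 in arousal 2 and 3443 in summer active 1.

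**Figure D4:**
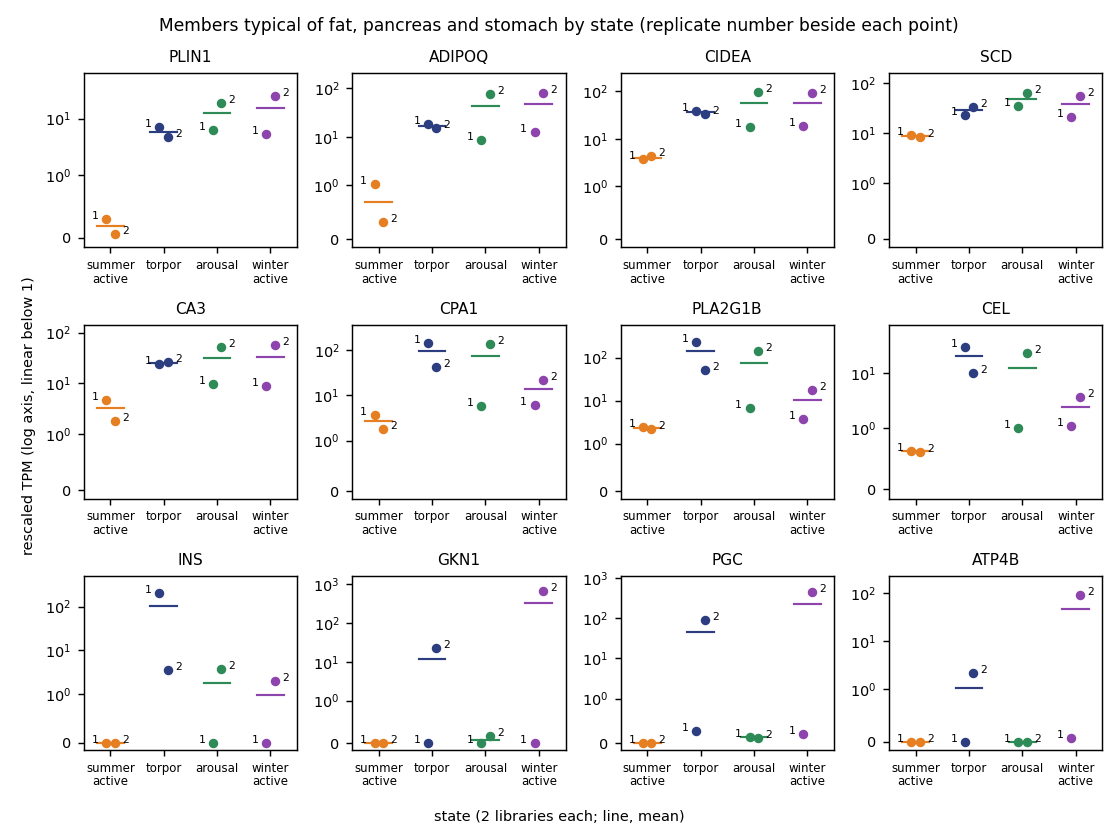
Rescaled TPM (y axis, log scale, linear below 1) of 12 members typical of fat, pancreas and stomach by state (x axis), with the replicate number beside each point and lines at state means. Fat genes peak in arousal 2 and winter active 2 (ADIPOQ at 75.4 and 81.4), pancreatic genes in torpor 1 (CPA1 at 144) and stomach genes in winter active 2 (GKN1 at 666).

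Apart from these, the clearest single members were STEAP1, CLPSL2 and 2 unnamed genes. STEAP1, of the metalloreductase family that reduces iron and copper (NCBI gene 117012463), stood at 7.69 and 7.27 in summer, 37.8 and 57.3 in torpor, 33.0 and 42.5 in arousal and 45.5 and 25.7 in the winter active state. Its ratio was 3.34 and its mean 40.3 ± 10.9 in November against 7.48 ± 0.295 in summer. STEAP2 missed the rule with a ratio of 1.34, while STEAP3 and STEAP4 overlapped between the seasons. STEAP1 was the 1 member among 30 iron-handling genes with a November mean of at least 5, against 0.848% of all genes there.

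CLPSL2, a colipase-like gene, was listed at 0 in both summer libraries and stood at 7.97 and 5.04 in torpor, 4.23 and 6.93 in arousal and 5.89 and 3.48 in the winter active state. Unlike the digestive enzyme genes, its November values stayed within a range of 3.48 to 7.97, with a coefficient of variation of 30.1%. LOC117022872 was at most 0.0597 in summer and stood at 11.8 and 37.1 in torpor, 26.98 and 75.8 in arousal and 50.4 and 54.8 in the winter active state. LOC117013415 stood at 2.92 and 2.74 in summer and 16.3 to 54.7 in November. SERPINB10, a protease inhibitor of blood-forming cells, stood at 24.1 and 26.0 in summer and 40.1 to 82.7 in November, highest in torpor 1.

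Vesicle and organelle genes formed the largest named set, with 13 members, and their 2 summer libraries were close together. BLZF1, a Golgi matrix protein, stood at 20.7 and 20.4 in summer, 43.7 and 51.3 in torpor, 57.8 and 50.3 in arousal and 43.8 and 43.3 in the winter active state. WDR11, a protein of Golgi and endosome traffic, stood at 14.0 and 13.8 in summer, 28.5 and 35.5 in torpor, 32.1 and 25.4 in arousal and 27.7 and 28.6 in the winter active state. SNX24, a sorting nexin, stood at 16.1 and 16.2 in summer and 27.3 to 39.1 in November. In each of these 3 genes the November coefficient of variation was under 15% (12%, 12.2% and 14.8%).

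Other vesicle and organelle genes had their highest values in arousal. TMEM33, an endoplasmic reticulum membrane protein, stood at 4.56 and 4.47 in summer, 11.9 and 12.3 in torpor, 22.3 and 21.6 in arousal and 10.6 and 16.1 in the winter active state. FCHO2, which starts clathrin-coated pits, stood at 4.18 and 4.50 in summer, 9.10 and 11.6 in torpor, 23.3 and 22.2 in arousal and 12.6 and 17.1 in the winter active state. SEL1L, the adaptor that feeds misfolded proteins to degradation, stood at 5.72 and 7.28 in summer, 11.3 and 22.5 in torpor, 37.2 and 32.3 in arousal and 18.8 and 26.4 in the winter active state.

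In TMEM33, FCHO2 and SEL1L both arousal libraries lay above every other library. ATP6V1A, the catalytic subunit of the proton pump of lysosomes, did likewise, with 76.5 and 65.6 against 34.7 to 53.4 in the other November libraries and 21.9 and 21.8 in summer. ATP2C1, the calcium and manganese pump of the Golgi, did not, at 25.2 in arousal 2 and 27.2 in winter active 2. The set also held ANKRD27 and SGK3 of endosomes, TMEM192 of lysosomes, the endocytic adaptor NUMB and the synaptotagmin SYT17, with ratios of 1.64 to 1.92. SEL1L was the 1 member among 37 genes of the unfolded protein response with a November mean of at least 5. MITF was the 1 among 82 on an autophagy and lysosome list that leaves out ATP6V1A and TMEM192. Over all genes at that level the share was 0.848%. Every November library lay above both summer libraries in 9 of the 37 and 8 of the 82, against 10.4% of all genes. Every November library lay below both in 1 and 8, counts that leave out genes that fell under a November mean of 5. With a summer mean of at least 5 these lists had 37 and 81 genes. Of these, 0 and 0 met the mirrored rule, against 2.82% of genes at that level.

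MCAM, an adhesion molecule of vessels and pericytes, had the highest ratio of the 9 adhesion, actin and matrix members (2.16). It stood at 6.65 and 3.61 in summer, 23.9 and 38.2 in torpor, 46.1 and 22.6 in arousal and 14.4 and 35.9 in the winter active state. ACTA2, smooth muscle actin, had the highest November mean of all members (183 ± 54.7), with 86.7 and 83.8 in summer, 141 and 185 in torpor, 131 and 285 in arousal and 178 and 179 in the winter active state.

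ACTA2 was the 1 member among 24 stromal and smooth muscle markers with a November mean of at least 5. The 19 endothelial markers held none. Members made up 0.848% of all genes at that level. FYB1, an adaptor of T cells and myeloid cells, was even in November, with 38.3 and 38.0 in summer and 59.2 to 79.6 in November. TIMP4, a metalloprotease inhibitor, stood at 36.1 and 19.2 in summer and 56.6 to 112 in November. The actin regulators CYRIA (48.0 and 22.6 in summer, 79.8 to 152 in November), MCF2L (12.4 and 6.87, 25.5 to 47.6) and CORO1C (13.2 and 15.6, 24.0 to 47.2) each had their highest value in arousal 1. PHACTR2, a phosphatase and actin regulator, stood at 2.45 and 2.72 in summer, 4.98 and 6.18 in torpor, 14.9 and 13.8 in arousal and 10.4 and 11.1 in the winter active state.

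Signalling and transcription members included feedback regulators. DUSP5, a phosphatase that turns off ERK, stood at 24.7 and 20.2 in summer, 44.9 and 55.3 in torpor, 141 and 59.0 in arousal and 46.2 and 59.4 in the winter active state, so its peak was arousal 1 alone. ADM, the vasodilator peptide adrenomedullin, stood at 22.1 and 17.0 in summer, 77.8 and 35.7 in torpor, 97.7 and 52.1 in arousal and 50.7 and 88.8 in the winter active state. It was the 1 member among 18 hypoxia genes with a November mean of at least 5, against 0.848% of all genes there. Of the 18, 7 lay above both summer libraries in every November library, against 10.4% of all genes at that level. MITF, a transcription factor of pigment, mast and myeloid cells, stood at 4.64 and 3.66 in summer, 8.19 and 13.6 in torpor, 18.9 and 15.1 in arousal and 8.81 and 8.89 in the winter active state.

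The same set held ZNF366, a zinc finger protein of dendritic cells, at 2.22 and 1.34 in summer and from 4.09 in torpor 2 to 21.1 in arousal 1. KCNK10, a potassium leak channel, stood at 10.2 and 4.77 in summer and 16.7 to 47.8 in November, again highest in arousal 1. NIBAN1, a stress-induced protein, stood at 3.93 and 3.44 in summer, 8.81 and 8.71 in torpor, 18.5 and 16.3 in arousal and 14.9 and 11.4 in the winter active state. SERTAD1, a cell cycle and transcription regulator, was even, at 20.2 and 19.6 in summer and 31.9 to 44.8 in November. PMEPA1 and KLF10, both targets of TGF-beta, had ratios of 1.82 and 1.502.

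Among genes that act on nucleic acids, proteins or metabolites, STAG3, a cohesin subunit known from meiosis, stood at 3.75 and 2.31 in summer, 16.6 and 23.4 in torpor, 14.99 and 12.1 in arousal and 7.97 and 13.3 in the winter active state. It was highest in the 2 torpor libraries. Of 12 meiosis and cohesin genes with a November mean of at least 5 it was the 1 member, against 0.848% of all genes. METTL21A, which methylates HSP70 chaperones, stood at 11.7 and 12.1 in summer, 32.0 and 58.4 in torpor, 47.7 and 43.7 in arousal and 26.4 and 34.7 in the winter active state. MTAP, of methionine salvage, stood at 1.43 and 1.22 in summer, 4.20 and 3.94 in torpor, 13.8 and 8.99 in arousal and 4.51 and 6.74 in the winter active state.

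NUDT9, an ADP-ribose hydrolase, stood at 48.8 and 39.8 in summer, 110 and 137 in torpor, 103 and 76.1 in arousal and 74.7 and 99.2 in the winter active state. TDRD7, a tudor protein of RNA granules, had the narrowest range here, 6.63 to 9.26 in November against 3.89 and 4.16 in summer. G3BP2, a stress granule protein, stood at 22.6 and 19.9 in summer and 34.8 to 70.1 in November. GCNT3, CMTR2, DCLRE1B, NABP1, EOGT and RSPRY1 had ratios between 1.54 and 1.94. The circadian clock, glucocorticoid, cold-responsive, immediate early, heat shock, ribosomal protein, respiratory chain, proteasome and mitosis lists held no member. They had 15 to 89 genes each with a November mean of at least 5. Members made up 0.848% of all genes at that level, so holding none is near that share.

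Comparisons among the 3 November states are not the difference the rule used, although the rule drew on the same libraries. They asked whether members differed between torpor, 2 h after capture and 26 h after capture. All 87 members passed the filter on low values and were tested with limma among 13542 genes on log2(value + 1), with adjustment over all of them. In arousal against torpor no member passed, nor did any other gene (0% called in either direction). The smallest adjusted p among members was 0.142. At an unadjusted p under 0.05, 16 members were higher and 1 lower, against 12.8% and 6.88% of tested genes. The median difference of the members was 0.30, against 0.11 for all genes tested, and 59 members (67.8%) had a difference above 0, against 58% of genes. Both arousal libraries lay above both torpor libraries in 31 members (35.6%), against 31.9% of genes, and below them in 7 (8.05%), against 22.2%.

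Members nearest to the threshold in this comparison were PHACTR2, FCHO2 and EIF2AK2. PHACTR2 stood at 14.4 ± 0.793 against 5.58 ± 0.849 (n = 2 each), a log2 difference of 1.23 (SE 0.22, limma adjusted p = 0.142). FCHO2 differed by 1.08 (SE 0.24, limma adjusted p = 0.143) and EIF2AK2 by 1.18 (SE 0.26). EIF2AK2 reached the November mean of 5 through arousal and was no member without arousal 1 or without arousal 2. Its difference is a description. With each column set to a total of 1000000, 6 members passed, PHACTR2, FCHO2 and EIF2AK2 among them. PHACTR2 and FCHO2 each had a limma adjusted p of 0.0456 there. That setting also moved the median of all genes from 0.11 to 0.45 and called 441 genes. On the lower side stood NUDT9 with a difference of -0.47 (limma adjusted p = 0.322), SYT17 with -0.58 and INS with -3.81. SYT17 reached the November mean of 5 through torpor 2 and was no member without it, so its difference is a description too. The value of INS rests on torpor 1, through which it reached the November mean of 5, so it is a description; without that library it was -1.08.

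In winter active against torpor the members sat near 0, with a median of -0.00094 against 0.079 for all genes, 43 above 0 (49.4%, against 56.7% of genes) and 44 below. No member passed (0% of genes called), and the smallest limma adjusted p was 0.274, for PHACTR2 at 10.8 ± 0.480 against 5.58 ± 0.849 (log2 difference 0.85, SE 0.22). TRIM56 differed by 0.89 (limma adjusted p = 0.329). EIF2AK2 differed by 0.79, again a description, since it reached the November mean of 5 through arousal. STAG3 differed by -0.87 (limma adjusted p = 0.348), with both winter active libraries below both torpor libraries. PLA2G1B differed by -3.55 (limma adjusted p = 0.352) and INS by -4.14. Without torpor 1 they differed by -2.46 and -1.41, and INS was then no member, so its difference is a description. At an unadjusted p under 0.05, 4 members were higher and 6 lower, against 9.09% and 4.11% of genes.

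In winter active against arousal 68 of the 87 members had a difference below 0 and 19 (21.8%) above it, against 45.6% of genes above, with a median of -0.35 against -0.037 for all genes tested. Both winter active libraries lay below both arousal libraries in 30 members (34.5%), against 21.3% of genes, and above them in 5 (5.75%), against 18.1%. No member passed (0% called), and the smallest limma adjusted p among members was 0.825. At an unadjusted p under 0.05, 0 members were higher and 6 lower, against 3.08% and 2.37% of genes. ABHD2 stood at 12.9 ± 1.71 against 25.6 ± 2.99 (log2 difference -0.93, SE 0.26), and MITF differed by -0.86. MTAP differed by -0.89, given as a description, since it reached the November mean of 5 through arousal. ATP4B, GKN1 and PGC had differences of 3.33, 4.57 and 4.36, given as a description. They rest on winter active 2, through which ATP4B and GKN1 reached the November mean of 5, and without it the differences were 0.10, -0.12 and 0.079 in the same order.

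A single test of any difference among the 3 November states called no member and no gene (0%), with a smallest adjusted p of 0.252 among members by limma's F test. At an unadjusted p under 0.05 it took 12 members, 13.8%, against 14.6% of genes. With 2 libraries a state, a member that misses the threshold is not shown to be level across November.

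**Figure D5:**
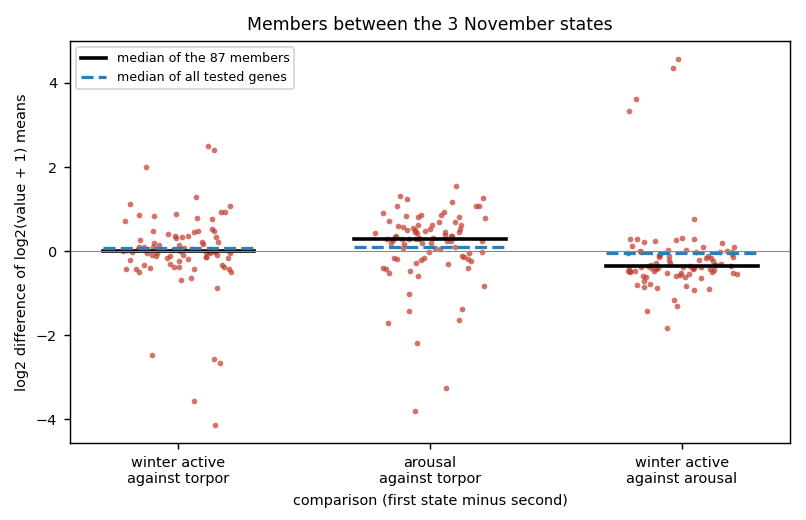
Log2 difference between November states (y axis, difference of mean log2(value + 1), first state minus second) for the 87 members in the 3 comparisons (x axis). Each point is a member, the black line their median and the dashed blue line the median of all 13542 tested genes. The members' median is 0.30 in arousal against torpor and -0.35 in winter active against arousal, and the pancreas and stomach genes make the far points.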

How the data were processed

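Whole-spleen RNA of 8 libraries was measured. The authors quantified it with kallisto 0.46.2 and sleuth 0.30.0, per the submitters' processing notes. Their deposited table gives a TPM signal per gene and library, rescaled so that columns do not sum to 1000000; transcriptome and rescaling steps: not given in the sources used here. With no counts the depth is unknown. A TPM unit was planned for, and its log-scale test kept.

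Members were taken from the deposited values by the rule in the report. Members and lists were chosen with earlier results of these data known. November states were compared with limma 3.58.1 in R 4.3.3 (trended eBayes, log2(value + 1), mean of at least 1, all 8 libraries in 1 fit, Benjamini-Hochberg adjusted p under 0.05), after the script was tested on simulated data. Named were the 25 highest ratios, 10 highest means, the least and most variable members, up to 4 members a list, the smallest p in each November comparison, 3 in each direction, and the genes beside the threshold. Members outside this rule were added after their values were seen. Alternatives were other thresholds, pseudocounts, filters, scalings and eBayes settings, November libraries alone, a replicate block and each library left out.

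All 87 members matched the RefSeq table by gene ID. It served for names and neighbours alone, with no coordinates, as the authors' annotation is unknown.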

Additional observations from a re-analysis of the deposited data

How the results depend on the processing

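The number of members depended on the rule and the scaling. It was 222 at a ratio of at least 1.3, 27 at 2, 137 at a November mean of at least 1 and 688 with columns set to 1000000, and ranged from 87 to 656 without 1 library. Median-of-ratios rescaling and quantile normalization gave 94 and 113, a November mean of at least 10 gave 70, and 71 of the 87 stayed under all 3 scalings. After seeing the data, a summer value above 0 in both libraries (81) and a lowest November value of at least 1 (81) were added.

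No member was called in the 4 tests under the alternatives tried, except with rescaled columns. With columns set to 1000000, arousal against torpor called 6 members, all higher, among 441 genes, 437 higher, and the members' median became 0.66. Without a filter, genes called numbered 6 in winter active against torpor (2 higher), 6 in arousal against torpor (1 higher), 2 in winter active against arousal (2 higher) and 6 among the 3 states. Leaving out 1 library gave 0 to 2 genes in arousal against torpor, 0 to 1 in winter active against arousal, higher, and 0 to 1 among the 3 states. Where a state kept 1 library, it was assumed to vary like the others. For GKN1 in winter active against arousal the difference ran from -0.12 without winter active 2 to 9.26 without winter active 1. With a replicate block no member passed in any comparison (0). The medians (0.30 in arousal against torpor) could not change, since each state has 1 library of each replicate number. Same-numbered libraries deviated together in some pairs of states (highest correlation 0.32, torpor with winter active) and not in others (lowest -0.19, torpor with arousal). With 2 libraries a state these values cannot decide whether same-numbered libraries are paired. The main fit used no pairing.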
